A study of Mus musculus with 12 samples.

Results

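The comparison described here sets all 6 libraries of mouse oesophageal epithelium with Stat3 deleted against all 6 with Stat3 intact, out of 12 libraries in the study. Each side holds 3 libraries with active IKKβ and 3 without it. The groups were chosen by genotype alone, and the effect of Stat3 loss was estimated over both IKKβ backgrounds in an additive model with IKKβ status as a term. The Ikkβca+Stat3KO mice carried Stat3L/L and ROSA26-StopFL-Ikk2ca+/L, a constitutively active IKK2 behind a floxed stop, together with ED/L2-Cre+. The Stat3KO mice carried ED/L2-Cre+ and Stat3L/L. Against these stood the Ikkβca mice, with ED/L2-Cre+ and ROSA26-StopFL-Ikk2ca+/L, and the Control mice, with Stat3L/L and the silent ROSA26-StopFL-Ikk2ca+/L but no Cre. All were C57BL/6 animals taken at 6 weeks, and the epithelium was peeled from the stroma by hand before RNA extraction. The ED/L2 promoter of Epstein-Barr virus drives Cre in the stratified squamous epithelium of the oesophagus, so cells outside the epithelium keep an intact Stat3. All 6 Stat3 loss libraries carried Cre, and among the intact libraries the 3 Ikkβca ones did. The labels do not state whether the 3 libraries of each genotype came from 3 animals. Xist and Y-linked counts showed that replicate 1 of every group was female and replicates 2 and 3 were male, so each genotype held animals of both sexes, while the spread between replicates 2 and 3 may be technical.

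STAT3 is a transcription factor that is phosphorylated by JAK kinases when cytokines of the IL-6 family bind their receptors, and it switches on genes of growth, survival and the acute-phase response. IKKβ is the kinase that releases NF-κB, the other inflammatory transcription factor altered in these mice. In the oesophagus, basal keratinocytes divide and their daughters differentiate as they move to the surface, so proliferation genes are read mostly from the basal layer. Before a cell copies its DNA, the origin recognition complex with the loaders Cdc6 and Cdt1 places the MCM helicase ring on origins, a step called licensing, and the E2F transcription factors activate these genes as cells pass into S phase. Genes of G2 and mitosis are switched on later in the cycle by another set of regulators, which act through CHR and CCAAT promoter elements.

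Libraries held 14.8 to 30.2 M counts of 23337 gene symbols. Krt5, Krt4 and Krt13, the keratins of the basal and suprabasal oesophagus, were abundant in all 12 libraries, and the 10 tested markers of oesophageal squamous epithelium summed to between 59858 and 170505 CPM (counts per 1 M counts of the scaled library total) in Stat3 loss libraries and between 73609 and 190470 CPM in intact ones. Krt4 and Krt13 took 4.05 to 13.9% of counts per library. Sex was balanced between the sides. Gastric transcripts stood apart in Ikkβca replicate 1 and Stat3KO replicate 3, with summed CPM of 139 in that Stat3KO library and 1770 in that Ikkβca library.

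With Stat3 loss, 33 genes were called lower and 9 higher of the 14134 tested. The genes that fell were led by those that license and copy DNA. Those that rose included Abca1, a cholesterol exporter, and Sema3d, a secreted guidance protein. Tests were edgeR quasi-likelihood tests with Benjamini-Hochberg adjustment over all genes, and a gene was called at an adjusted p below 0.05. The share of tested genes called was 0.297%, made up of 0.233% called lower and 0.0637% called higher. The smallest adjusted p was 0.010. Leaving out 1 library at a time gave 10 to 54 called genes. None was called with scaling to library totals, with a stromal marker term, or in the contrast free of a Cre difference. Of the 42 called genes 36 did not overlap between the 6 loss and the 6 intact libraries. These genes were chosen by the same difference, so this describes the calls and is no separate support. Among all tested genes, 0.573% had all 6 loss libraries below all 6 intact ones and 0.467% had them all above.

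The targeted gene itself was not called. Stat3 (chromosome 11, 100885098 to 100939540, minus strand, mm10) had 170, 154 and 194 CPM in replicates 1 to 3 of Ikkβca+Stat3KO and 139, 154 and 145 CPM in Stat3KO, against 158, 222 and 239 CPM in Ikkβca and 174, 157 and 179 CPM in Control. The sides overlapped, and the log2 fold change was -0.24 ± 0.10 (edgeR adjusted p = 0.357). A count per gene covers all exons, so it cannot show whether the floxed ones were missing from the transcripts.

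Among 32 tested genes of a list of STAT3 targets, drawn from textbook targets, none was called in either direction, where 0.297% of all genes tested were called. Their median log2 fold change was -0.21, against -0.01 over all genes tested, and 24 lay below 0, where 52% of all genes tested did. Bcl3, an atypical IκB protein that works as a nuclear cofactor of NF-κB, showed the steadiest difference of them. It had 31.2, 21.7 and 43.4 CPM in Ikkβca+Stat3KO and 8.52, 16.7 and 27.2 CPM in Stat3KO, against 60.6, 61.5 and 62.99 CPM in Ikkβca and 29.97, 30.7 and 35.8 CPM in Control. Within each IKKβ background all 3 loss libraries lay below all 3 intact ones, though the 6 and 6 overlapped, with Ikkβca+Stat3KO libraries reaching the level of Control. Its log2 fold change was -0.91 ± 0.23 (edgeR adjusted p = 0.142, exact permutation p = 0.005 within backgrounds, which is the smallest that 400 arrangements allow). Separation within both backgrounds always gives this exact p, so it restates that pattern and is no separate support. Cp, the copper-binding ferroxidase ceruloplasmin, had 1.55 ± 0.333 CPM with Stat3 loss and 3.63 ± 1.38 CPM with Stat3 intact (SD, n = 6 each over both IKKβ backgrounds), at -1.18 ± 0.29 (edgeR adjusted p = 0.126). Haptoglobin, encoded by Hp, was at -3.34 ± 0.77 with at most 0.25 CPM in any loss library, and it overlapped because Control replicate 1 had no count. It was low throughout, with 2.98, 2.13 and 0.43 CPM in Ikkβca and 0, 4.86 and 2.44 CPM in Control. The intact libraries ranked in the same order by their mean log2 CPM of adipocyte markers. That mean was 2.33, 1.57 and 0.30 in Ikkβca and -1.01, 4.08 and 2.19 in Control. Whether Hp reads came from fat was not tested. Socs3, the feedback inhibitor of this pathway and the gene most often used to read it, was at -0.18 ± 0.20, and Pim1, Junb, Mcl1 and Il6st lay between -0.03 and 0.07. Myc was at 0.19 ± 0.13 and Ccnd1, encoding cyclin D1, at -0.36 ± 0.20. None of these genes passed the edgeR test. DESeq2, run as an alternative, called 1.63% of all genes lower, and among the 32 it called Bcl3, Cp and Hp lower (DESeq2 adjusted p = 0.0119, 0.00772 and 9.9e-04).

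Origin licensing was the step with the most called genes. Of 26 tested genes of the MCM helicase and origin licensing list, 10 fell and none rose, where 0.233% of all genes tested were called lower. The list median was -0.73, and 24 of 26 genes lay below 0, where 52% of all genes tested did. Such a lean was not particular to this list. Lists with no called gene had 28 of 30 (cholesterol and fatty acid synthesis) and 26 of 30 (MYC and ribosome biogenesis) below 0. Their medians were -0.30 and -0.10. Respiratory chain genes had 6 of 26 below 0. All loss libraries lay below all intact ones for 12 of the 26, and for 0.573% of all genes tested. The list was written with earlier results of these data known, so its count describes the genes and is no separate evidence.

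Mcm3 (chromosome 1, 20802968 to 20820312, minus strand, mm10), a subunit of the replicative helicase ring, had 25.6, 29.7 and 20.9 CPM in Ikkβca+Stat3KO and 37.5, 28.7 and 46.1 CPM in Stat3KO, against 71.3, 58.5 and 80.01 CPM in Ikkβca and 104, 141 and 65.2 CPM in Control. Every loss library lay below every intact library, and the highest loss value, in Stat3KO replicate 3, stood below the lowest intact value, in Ikkβca replicate 2. The log2 fold change was -1.46 ± 0.18 (edgeR adjusted p = 0.01), a 2.75-fold lower level with Stat3 loss. Mcm5 (chromosome 8, 75109569 to 75128439, plus strand, mm10), another ring subunit, had 29.6, 27.4 and 26.2 CPM in Ikkβca+Stat3KO and 44.6, 30.8 and 51.9 CPM in Stat3KO, against 63.9, 60.2 and 81.8 CPM in Ikkβca and 95.5, 133 and 69.7 CPM in Control. Its values did not overlap, and the 3 Ikkβca+Stat3KO libraries were the lowest of the 12. Mcm2 fell by 1.31, Mcm5 by 1.27, Mcm4 by 1.13 and Mcm6 by 1.05 on the log2 scale, with standard errors of 0.13 to 0.17 and the same edgeR adjusted p of 0.010. Mcm7, which completes the ring, had 45.5 CPM on average with Stat3 loss and 69.4 CPM with Stat3 intact, at -0.61 ± 0.15 (edgeR adjusted p = 0.126).

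Genes for the proteins that load this ring fell too. Orc1 (chromosome 4, 108579423 to 108614833, plus strand, mm10), the largest subunit of the origin recognition complex, had 1.001, 1.57 and 1.26 CPM in Ikkβca+Stat3KO and 2.48, 1.63 and 3.16 CPM in Stat3KO, against 6.34, 3.92 and 7.44 CPM in Ikkβca and 7.83, 10.2 and 5.14 CPM in Control. Its fall of 1.88 ± 0.25 on the log2 scale was the largest of all called genes (edgeR adjusted p = 0.01), and all loss libraries lay below all intact ones. Cdc6, the loader that joins the complex in G1, had a lowest, median and highest level of 2.25, 3.11 and 4.7997 CPM with Stat3 loss, against 6.77, 8.91 and 15.2 CPM with Stat3 intact, and fell by 1.54 ± 0.21. Cdt1, its partner in loading, fell by 1.16 ± 0.20, with 10.99, 21.1 and 28.9 CPM in loss libraries against 30.2, 41.8 and 68.5 CPM in intact ones. Both were free of overlap. Gins2, part of the GINS complex that activates the helicase, fell by 1.05 ± 0.17, and Wdhd1, which ties the helicase to DNA polymerase alpha, fell by 0.91 ± 0.16. The other subunits of the origin recognition complex were not called. Orc2 was at -0.35, Orc6 at -0.21, Orc4 at -0.03, Orc5 at -0.01 and Orc3 at 0.06. Dbf4, the regulatory partner of the Cdc7 kinase that fires licensed origins, was at 0.28, and Cdc7 itself at -0.68, neither called.

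**Figure D1:**
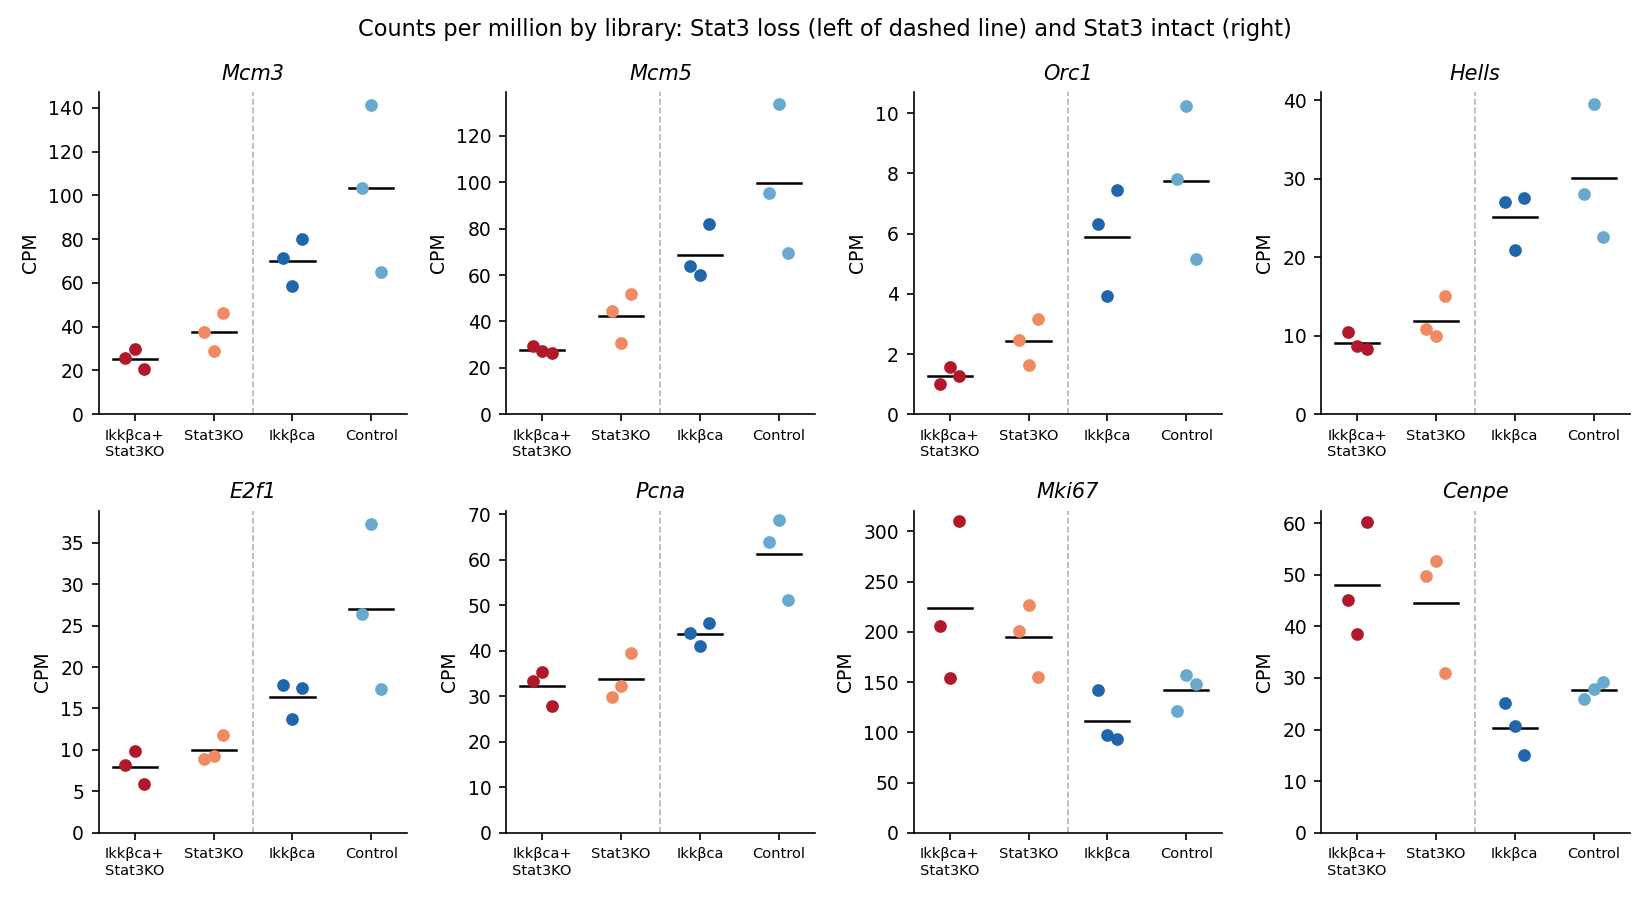
Level of 8 cell cycle genes in each of the 12 libraries, in CPM on a linear axis from 0, with Stat3 loss groups left of the dashed line and Stat3 intact groups right of it. Points are libraries and bars are means of 3 libraries. Mcm3, Mcm5, Orc1, Hells, E2f1 and Pcna lie lower in all 6 loss libraries, Cenpe lies higher in all 6, and Mki67 overlaps at the edge.

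The proximal promoters of 4 of the genes that fell are shown because they carry E2F motif words, the elements through which E2F factors act. Each is the 250 bases before the RefSeq transcription start in GRCm38.p6, written 5′ to 3′ on the strand of the gene, and capitals mark every E2F word found on either strand, where overlapping words run together.
Orc1 chr4:108579204-108579453 plus strand: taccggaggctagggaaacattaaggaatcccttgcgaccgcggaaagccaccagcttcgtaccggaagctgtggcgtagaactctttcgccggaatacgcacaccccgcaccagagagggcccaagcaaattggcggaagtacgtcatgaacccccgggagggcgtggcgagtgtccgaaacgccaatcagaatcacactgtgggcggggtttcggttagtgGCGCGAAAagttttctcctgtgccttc
Mcm5 chr8:75109259-75109508 plus strand: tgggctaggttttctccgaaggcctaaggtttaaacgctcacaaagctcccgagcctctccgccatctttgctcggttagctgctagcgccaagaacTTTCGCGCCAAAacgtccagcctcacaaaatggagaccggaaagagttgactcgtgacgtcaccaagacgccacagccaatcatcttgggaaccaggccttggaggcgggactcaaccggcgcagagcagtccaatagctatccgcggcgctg
Mcm6 chr1:128359706-128359955 minus strand: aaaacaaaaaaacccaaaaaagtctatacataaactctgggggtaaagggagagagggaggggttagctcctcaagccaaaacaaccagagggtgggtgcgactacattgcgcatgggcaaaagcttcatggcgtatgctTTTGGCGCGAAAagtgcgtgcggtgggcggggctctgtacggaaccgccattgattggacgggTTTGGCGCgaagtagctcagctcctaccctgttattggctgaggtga
Hells chr19:38930740-38930989 plus strand: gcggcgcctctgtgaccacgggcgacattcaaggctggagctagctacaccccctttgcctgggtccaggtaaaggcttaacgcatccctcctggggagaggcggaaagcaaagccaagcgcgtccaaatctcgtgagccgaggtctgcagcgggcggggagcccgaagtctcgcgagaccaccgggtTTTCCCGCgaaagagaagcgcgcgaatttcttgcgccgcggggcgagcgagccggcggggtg

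The words searched were TTTCCCGC, TTTGGCGC, TTTCGCGC and TTTGCCGC on both strands, in windows from 250 bases before to 50 bases after each start. Of the 33 genes called lower 28 had a RefSeq window, and 10 of them (35.7%) held at least 1 E2F word, where 488 of 11109 tested genes with a window did (4.39%). These 10 were Orc1, Cdc6, Cdt1, Mcm3, Mcm5, Mcm6, Hells, Uhrf1, Dtl and Zfp367. In the licensing list 10 of 20 genes with a window held a word (50%), and in the DNA synthesis list 12 of 32 (37.5%). The STAT word TTCNNNGAA was found in 1 of the 28 genes called lower (3.57%), Mcm5, in 4 of 20 genes of the licensing list (20%), in 5 of 28 STAT3 targets (17.9%) and in 8.21% of all tested genes with a window. A word in a window is a description of letters and not a measured binding site.

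Some genes of DNA synthesis and nucleotide supply fell as well. Of 37 tested, 6 were called lower and none higher, where 0.233% of all genes were called lower. All 37 lay below 0, where 52% of all genes tested did, and the median was -0.49. Hells (chromosome 19, 38930915 to 38971051, plus strand, mm10), a chromatin remodeller needed for DNA methylation, had 10.5, 8.65 and 8.32 CPM in Ikkβca+Stat3KO and 10.8, 9.97 and 15.1 CPM in Stat3KO, against 27.05, 20.99 and 27.6 CPM in Ikkβca and 28.1, 39.5 and 22.6 CPM in Control, at -1.39 ± 0.16 (edgeR adjusted p = 0.01). The loss libraries all lay below the intact ones. Uhrf1, which reads hemimethylated DNA behind the fork, had 16.9, 25.3 and 40.03 CPM as its lowest, median and highest with Stat3 loss, against 42.7, 55.2 and 106 CPM with Stat3 intact, and fell by 1.27 ± 0.18. Timeless, which protects stalled forks, fell by 1.18 ± 0.19. Smaller falls were seen for the sliding clamp gene Pcna, at -0.65 ± 0.12 with 27.8, 32.8 and 39.4 CPM against 40.96, 48.6 and 68.7 CPM, and for Fen1, which trims Okazaki fragments, at -0.74 ± 0.13. Rpa1, the large subunit of the single-strand binding complex, fell by 0.52 ± 0.10, and its ranges overlapped. Just short of the threshold lay Atad5 (-0.86), Chaf1b (-1.19), Rrm2 (-0.83) and Lig1 (-0.80), with edgeR adjusted p between 0.0531 and 0.061. The catalytic subunits of the replicative polymerases, Pola1, Pold1 and Pole, were at -0.20, -0.70 and -0.81 and were not called.

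Regulators of the entry into S phase were mostly not called. Of 27 tested G1 to S regulators 2 were called lower and none higher, and the median was -0.25. The share of all genes called lower was 0.233%. E2f1, the activator E2F, had 8.16, 9.87 and 5.91 CPM in Ikkβca+Stat3KO and 8.92, 9.27 and 11.8 CPM in Stat3KO, against 17.8, 13.7 and 17.5 CPM in Ikkβca and 26.4, 37.3 and 17.4 CPM in Control, without overlap, at -1.23 ± 0.20 (edgeR adjusted p = 0.025). Ccne1, encoding cyclin E1, fell to 6.04, 7.43 and 10.3 CPM (lowest, median and highest) in loss libraries, against 11.1, 16.1 and 20.9 CPM in intact ones, at -1.003 ± 0.18 (edgeR adjusted p = 0.0395). Its relative Ccne2 was at -1.02 ± 0.26 (edgeR adjusted p = 0.132), and Tfdp1, the dimer partner of E2F proteins, was at -0.33 ± 0.07 (edgeR adjusted p = 0.0745) with no overlap between sides. The kinase Cdk4, cyclin D2 (Ccnd2), the retinoblastoma gene Rb1 and the inhibitor Cdkn1a were at -0.10, -0.13, 0.06 and -0.12. In the list of S phase DNA repair 1 of 20 genes was called, Exo1, an exonuclease of mismatch repair and end resection, which fell by 1.23 ± 0.19. The checkpoint kinase gene Chek1 followed at -0.99 ± 0.19 (edgeR adjusted p = 0.0551).

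Outside the 4 lists of licensing, synthesis, S phase repair and G1 to S control, 14 more genes fell, and several of them also act in S phase. They belonged to no list and are named here after their values were seen. Ung, the glycosylase that removes uracil from new DNA, had 6.21, 7.67 and 4.397 CPM in Ikkβca+Stat3KO and 9.599, 9.88 and 13.9 CPM in Stat3KO, against 20.5, 18.8 and 22.5 CPM in Ikkβca and 29.9, 39.5 and 18.02 CPM in Control, and fell by 1.56 ± 0.20 (edgeR adjusted p = 0.01). Dtl, the ubiquitin ligase adaptor that destroys Cdt1 during S phase, fell by 1.29 ± 0.16, with 6.44, 9.18 and 15.1 CPM in loss libraries against 18.6, 21.7 and 32.8 CPM in intact ones. Slbp, which binds the stem loop of replication-dependent histone messages, fell by 0.68 ± 0.11, and Fignl1, an ATPase of recombination repair, by 1.10 ± 0.18. Each of these 4 genes separated the sides without overlap.

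The list of G2 and mitosis genes lay on the other side of 0. All 34 tested genes had a positive log2 fold change, where 48% of all genes tested did. Their median was 0.57 against -0.01 over all genes, and none was called by edgeR, where 0.0637% of all genes were called higher. By DESeq2 8 of the 34 were called higher, where DESeq2 called 1.15% of all genes higher. At an unadjusted p below 0.05, 26 of the 34 were higher in the edgeR fit, where 841 of all 14134 tested genes were. Cenpe (chromosome 3, 135212537 to 135273611, plus strand, mm10), a kinesin that moves chromosomes to the spindle equator, came nearest. It had 45.2, 38.5 and 60.2 CPM in Ikkβca+Stat3KO and 49.8, 52.6 and 31.03 CPM in Stat3KO, against 25.2, 20.7 and 15.05 CPM in Ikkβca and 26, 27.9 and 29.2 CPM in Control. Every loss library lay above every intact one, at 0.96 ± 0.18 (edgeR adjusted p = 0.0531). Cenpa, the centromeric histone, was the other gene of the list without overlap, with 27.2, 34.1 and 54.8 CPM as lowest, median and highest against 9.63, 20.7 and 26.6 CPM, at 0.98 ± 0.23 (edgeR adjusted p = 0.117). Mki67, the proliferation marker Ki-67, had 206, 154 and 310 CPM in Ikkβca+Stat3KO and 201, 227 and 155 CPM in Stat3KO, against 142, 97.3 and 93.5 CPM in Ikkβca and 121, 157 and 148 CPM in Control, at 0.73 ± 0.19 (edgeR adjusted p = 0.148). The sides overlapped for Mki67 through Control replicate 2 alone among intact libraries. The mitotic cyclins Ccnb1 and Ccnb2 were at 0.76 and 0.85, the spindle genes Nusap1 and Kif2c at 0.83 and 0.77, Top2a at 0.43, Cdk1 at 0.28 and Pbk at 0.01.

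The promoters of these genes carry other letters. Cenpa and Mki67 are shown for comparison with the 4 above, again as the 250 bases before the RefSeq start in GRCm38.p6, and capitals here mark CHR words (TTTGAA or TTTAAA, both strands).
Cenpa chr5:30666636-30666885 plus strand: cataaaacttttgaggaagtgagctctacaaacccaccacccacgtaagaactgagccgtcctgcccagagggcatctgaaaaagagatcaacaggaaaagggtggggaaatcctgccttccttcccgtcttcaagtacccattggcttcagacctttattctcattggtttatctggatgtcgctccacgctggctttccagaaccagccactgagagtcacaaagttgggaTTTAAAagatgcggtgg
Mki67 chr7:135716380-135716629 minus strand: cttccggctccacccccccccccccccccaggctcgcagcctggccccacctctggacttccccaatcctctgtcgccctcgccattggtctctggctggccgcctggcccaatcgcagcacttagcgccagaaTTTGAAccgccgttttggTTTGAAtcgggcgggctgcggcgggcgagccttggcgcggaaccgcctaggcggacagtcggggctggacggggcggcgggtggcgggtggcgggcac

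Of 27 G2 and mitosis genes with a window 23 held a CHR word (85.2%) and 21 a CCAAT word (77.8%), where 22.5% and 42.4% of all tested genes with a window did. An E2F word was found in 1 of the 27 (3.7%). Among the 28 genes called lower with a window, 28.6% held a CHR word and 46.4% a CCAAT word. The CHR words are short and both are common, which the shares over all genes show.

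**Figure D2:**
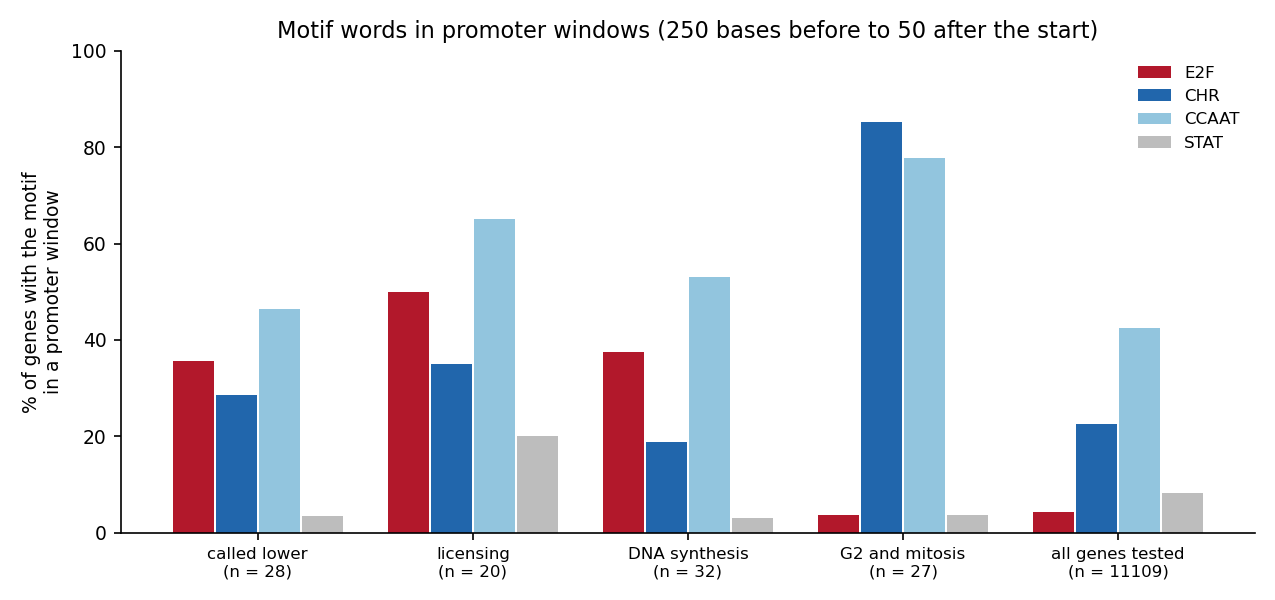
Percentage of genes with at least 1 copy of each motif (E2F, CHR, CCAAT and STAT words, both strands) in the window from 250 bases before to 50 bases after a RefSeq start, for the genes called lower, 3 gene lists and all genes tested. E2F words stand at 35.7% of genes called lower and 4.39% of all genes, and CHR words at 85.2% of G2 and mitosis genes and 22.5% of all genes.

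Libraries could be ordered by the distance between these lists. The mean log2 CPM of mitosis genes minus that of licensing genes was 1.16, 0.90 and 1.88 in replicates 1 to 3 of Ikkβca+Stat3KO and 1.03, 1.54 and 0.56 in Stat3KO, against 0.04, -0.00042 and -0.62 in Ikkβca and -0.28, -0.09 and 0.43 in Control. The loss and intact libraries did not overlap, with Stat3KO replicate 3 the lowest loss library and Control replicate 3 the highest intact one. Both lists were written with earlier results of these data known, so this separation describes the libraries and is no separate evidence. The licensing mean alone also separated the sides, at 3.52 to 4.04 in loss libraries and 4.12 to 4.99 in intact ones. The mitosis mean ranged from 4.60 to 5.40 in loss libraries and from 3.78 to 4.89 in intact ones, and overlapped. In bulk RNA, fewer cells in a phase and less RNA per cell cannot be told apart.

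**Figure D3:**
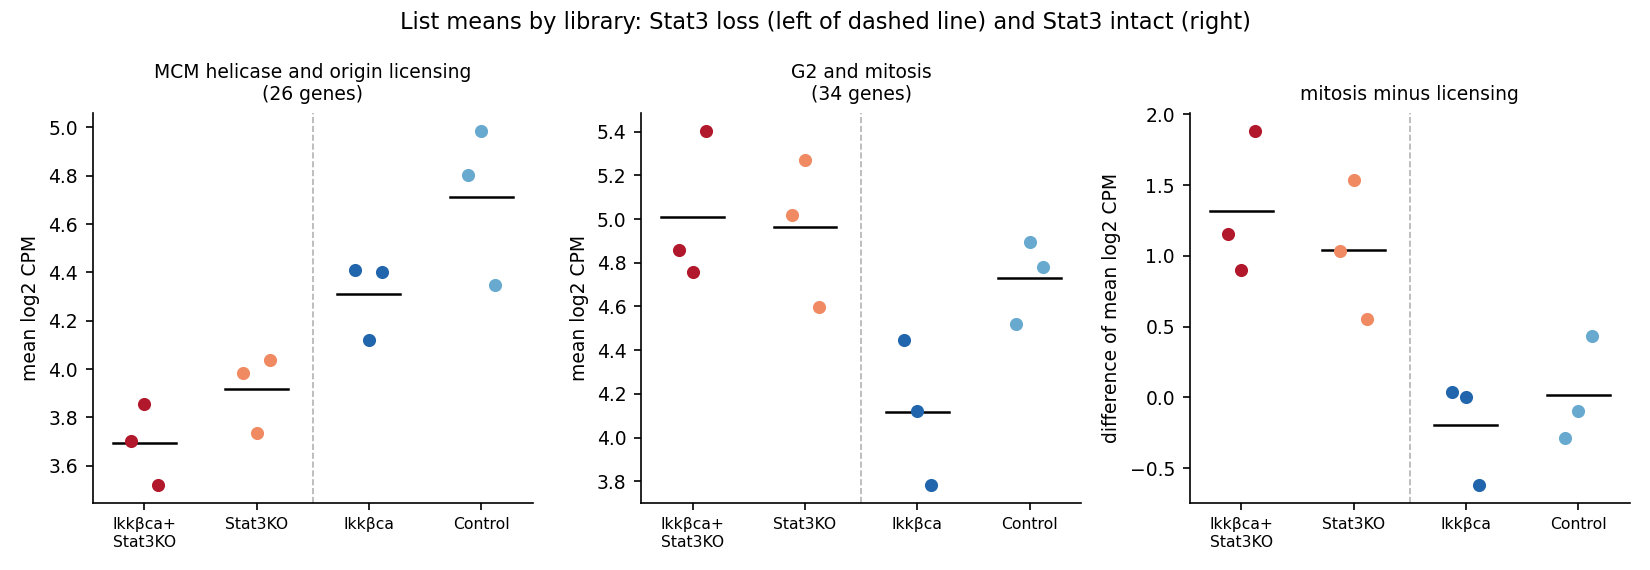
Mean log2 CPM per library over 26 licensing genes and 34 G2 and mitosis genes, and their difference, with Stat3 loss groups left of the dashed line and intact groups right of it. Points are libraries and bars are means of 3 libraries. The difference is 0.56 to 1.88 in loss libraries and -0.62 to 0.43 in intact ones, with no overlap. Both lists were written with earlier results of these data known.

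The remaining falls were of mixed function, and no list tied them together. Wnk4, a kinase of epithelial ion transport, had 68.1, 37.1 and 57.4 CPM in Ikkβca+Stat3KO and 46.9, 45.1 and 41.4 CPM in Stat3KO, against 132, 179 and 177 CPM in Ikkβca and 121, 78.7 and 61.3 CPM in Control, and fell by 1.28 ± 0.20. Wnt5a, a Wnt ligand that signals without β-catenin, had 6.96, 9.23 and 6.91 CPM in Ikkβca+Stat3KO and 2.61, 2.55 and 3.44 CPM in Stat3KO, against 15.2, 26.5 and 22.1 CPM in Ikkβca and 4.81, 6.38 and 4.57 CPM in Control, and fell by 1.16 ± 0.19. For both genes the 6 and 6 overlapped, while within each IKKβ background the 3 loss libraries lay below the 3 intact ones. Prss12, a secreted serine protease, showed the same pattern at -1.61 ± 0.25. Rbp4, the retinol carrier, was low throughout, with 0.2002, 0.436 and 0.901 CPM in loss libraries (lowest, median and highest) against 1.33, 1.75 and 2.63 CPM in intact ones, and fell by 1.69 ± 0.28. Apol6 was lower yet, with at most 0.176 CPM in any loss library and at least 0.457 CPM in any intact one. Eln, which encodes elastin and is made by stromal cells, fell by 1.12 ± 0.20, with 19.4, 25.4 and 33.3 CPM against 35.7, 60.9 and 71.03 CPM. The apolipoprotein E receptor gene Lrp8 and the kinase gene Stk10 fell by 1.03 ± 0.18 and 1.09 ± 0.19.

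Of the 9 genes that rose, 8 had all loss libraries above all intact ones, Sema3d being the exception. Abca1 (chromosome 4, 53030787 to 53159895, minus strand, mm10) had 51.8, 50.99 and 43.9 CPM in Ikkβca+Stat3KO and 68.1, 53.6 and 38.6 CPM in Stat3KO, against 24.1, 17.9 and 28.1 CPM in Ikkβca and 31.1, 21.6 and 19.2 CPM in Control, and rose by 1.11 ± 0.16 (edgeR adjusted p = 0.0178), a 2.16-fold higher level. Sema3d rose by 1.01 ± 0.18, with 23.1, 37.98 and 43.3 CPM as lowest, median and highest with Stat3 loss against 11.4, 16.1 and 24.8 CPM with Stat3 intact. Wbscr27 rose by 1.08 ± 0.18 and Paox, a polyamine oxidase, by 0.66 ± 0.11. The other rises were of less than 0.6 on the log2 scale in genes with little spread. Ppp2r3a, a regulatory subunit of the phosphatase PP2A, had 77.6, 87.7 and 101 CPM against 53.6, 58.5 and 72.2 CPM, at 0.56 ± 0.07 (edgeR adjusted p = 0.01). Cdk19, a kinase of the Mediator complex, rose by 0.50 ± 0.07, with 43.97, 48.9 and 52.7 CPM against 30.6, 34.8 and 36.8 CPM. Ptpn14, a phosphatase that restrains the growth coactivator YAP, rose by 0.49 ± 0.08, Arhgap18 by 0.57 ± 0.10, and the zinc finger gene Tshz2 by 0.53 ± 0.10.

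Was the effect the same with and without active IKKβ? The 42 genes were chosen by their change over both backgrounds, so their shared sign in the 2 backgrounds is a description. Mcm3 was at -1.46 ± 0.27 for Ikkβca+Stat3KO against Ikkβca and at -1.46 ± 0.27 for Stat3KO against Control, Orc1 at -2.13 ± 0.36 and -1.64 ± 0.35 in the same order, and Abca1 at 1.06 ± 0.24 and 1.16 ± 0.24. The interaction of Stat3 loss with IKKβ status was called for no gene of 14134 by edgeR (0%, with 658 genes at an unadjusted p below 0.05 and a smallest adjusted p of 0.837), and DESeq2 called 6, Irak3, Kcna7, Lpin1, Phf15, S100a8 and Sox6. Among the 42 genes the smallest unadjusted interaction p was 0.0723, for Pcna, which was at -0.44 ± 0.15 with active IKKβ and -0.85 ± 0.15 without it. The G2 and mitosis list had a median of 0.84 with active IKKβ and 0.29 without it, and the licensing list -0.48 and -0.94 in the same order. These list differences were not tested. S100a8, a calprotectin subunit, was at -2.55 with active IKKβ and 0.72 without it (edgeR interaction, unadjusted p = 0.00121, not called). Across all 14134 genes the Pearson correlation of the changes in the 2 backgrounds was -0.0193, a description over genes, which are not independent replicates. Neither background called a gene alone. Ikkβca+Stat3KO against Ikkβca had 1396 genes at an unadjusted p below 0.05 and a smallest edgeR adjusted p of 0.175, and Stat3KO against Control had 1060 and 0.179.

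**Figure D4:**
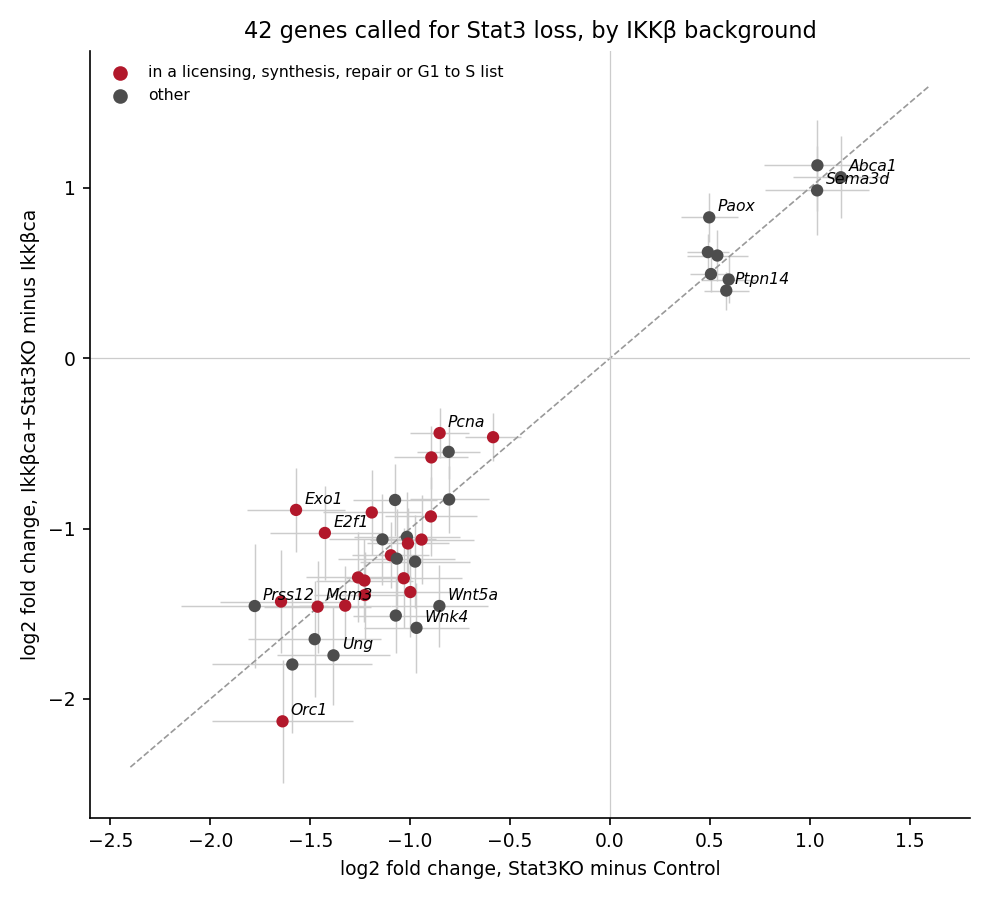
Log2 fold change of the 42 called genes with active IKKβ (vertical axis, Ikkβca+Stat3KO minus Ikkβca) against that without it (horizontal axis, Stat3KO minus Control), with bars of 1 standard error and a dashed line of equality. Points lie in the lower left or upper right, with 33 genes lower and 9 higher in both, and red marks the 19 genes of the licensing, synthesis, repair or G1 to S lists.

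Of 19 basal layer genes none was called by edgeR and the median was 0.14, made up of -7.1e-05 with active IKKβ and 0.27 without it. With 0.297% of all genes called, lists of this size would hold few called genes or none. Krt5 was at -0.09 ± 0.17, Krt14 at -0.47 ± 0.17, Trp63, the transcription factor of the basal layer, at 0.20 ± 0.10, and Dst, a hemidesmosome linker, at 0.55 ± 0.18. Of 45 suprabasal and differentiation genes none was called by edgeR, 38 lay below 0, where 52% of all genes tested did, and the median was -0.26. The wound keratins Krt16 and Krt6a were at -1.32 ± 0.40 and -1.20 ± 0.32 (edgeR adjusted p = 0.198 and 0.147), and both were called lower by DESeq2. Krt6a has a near copy, Krt6b, so its counts may be misplaced. Epcam, an epithelial adhesion gene, was at 0.44 ± 0.11 (edgeR adjusted p = 0.142) with every loss library above every intact one. Lists of IL-6 family and JAK-STAT components, MYC and ribosome biogenesis, p53 targets, NF-κB targets, interferon response, glycolysis, respiration, sterol synthesis, stress response, circadian clock, apoptosis and immediate early genes also had none called by edgeR, with medians between -0.30 and 0.04. In these 12 lists DESeq2 called 7 of 319 genes lower and 1 higher, where it called 1.63% of all genes lower and 1.15% higher. Antimicrobial genes had a median of -0.78, made up of -0.97 with active IKKβ and -0.02 without it.

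**Figure D5:**
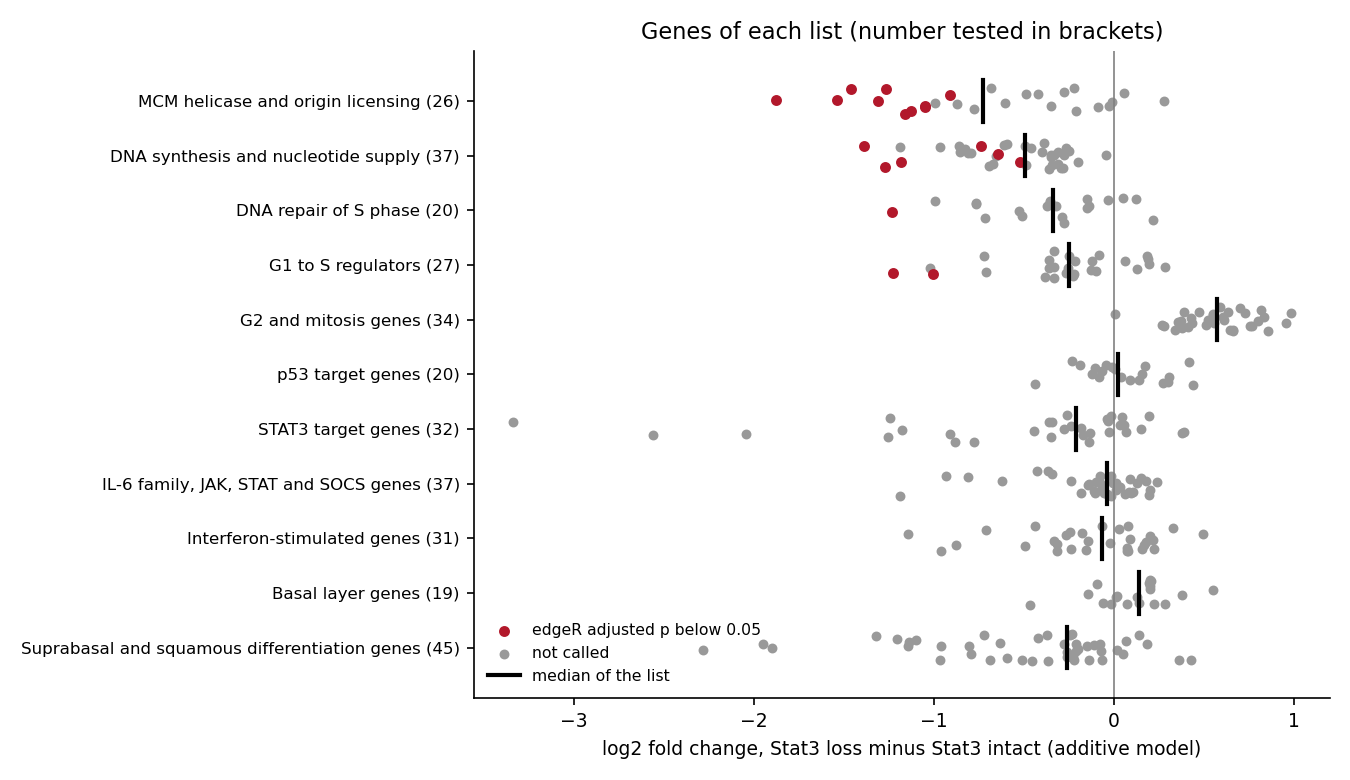
Log2 fold change for Stat3 loss of every tested gene in 11 lists, from the additive model. Each point is a gene, red where the edgeR adjusted p is below 0.05, and black bars are list medians, at -0.73 for licensing genes and 0.57 for G2 and mitosis genes.

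Markers of other cell types had mostly negative fold changes, where 52% of all genes tested lay below 0, and the range of each list overlapped between the sides. The mean log2 CPM of 52 fibroblast, smooth muscle, endothelial, adipocyte and nerve markers was 3.35 to 3.98 in loss libraries and 3.85 to 5.12 in intact ones. Endothelial markers had 11 of 12 below 0 with a median of -0.84 and summed to 65.7 to 175 CPM in loss libraries against 89.9 to 357 CPM in intact ones. Smooth muscle markers had 10 of 10 below 0 with a median of -0.71 and summed to 1137 to 2253 CPM against 1298 to 4901 CPM. Fibroblast markers had 14 of 15 below 0, at a median of -0.51 and sums of 1085 to 3017 CPM against 1039 to 3833 CPM. Adipocyte markers had 6 of 6 below 0 at a median of -3.87, with sums of 9.88 to 20.3 CPM against 14.6 to 168 CPM, and nerve markers 8 of 9 at -1.14. Dendritic markers had 7 of 8 below 0, T and NK markers 7 of 8, and MHC class II genes 8 of 8, at medians of -0.89, -0.86 and -0.67. Skeletal muscle markers were at 0.28, made up of -2.22 with active IKKβ and 2.65 without it. Macrophage markers had 12 of 14 below 0 at -0.26, made up of -0.48 with active IKKβ and 0.07 without it, and granulocyte and mast cell markers 5 of 5 at -0.50, made up of -0.99 and 0.13 in the same order. Gastric markers had 7 of 7 below 0 at -1.49, made up of -3.45 with active IKKβ and 0.56 without it, and their median was 0.07 without Ikkβca replicate 1. None of these markers was called by edgeR. DESeq2 called 10 lower and 1 higher of 119 genes in these lists and that of B cells. Over all genes it called 1.63% lower and 1.15% higher. Of the 10 lower ones 4 were adipocyte and 3 nerve markers. The higher one was Epcam, counted in the dendritic list, with every loss library above every intact one. With the mean of those 52 genes added to the model, a choice made after seeing the data, Mcm3 stood at -1.34, Orc1 at -1.71, Hells at -1.35 and Eln at -0.41, and no gene was called (edgeR adjusted p = 0.526 for Mcm3, 0.532 for Orc1, 0.526 for Hells and 0.9997 for Eln).

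The sign of the 42 genes did not change under any alternative tried. They were chosen by their change in these same libraries, so the kept sign is a description and no separate support. The count of calls depended on single libraries and on scaling. It was 10 without Stat3KO replicate 1, 11 without Stat3KO replicate 2, 12 without Ikkβca replicate 3, 15 without Ikkβca+Stat3KO replicate 3, 16 without Control replicate 2 and 20 without Ikkβca+Stat3KO replicate 1, and 9 genes (Orc1, Ung, Mcm2, Mcm3, Mcm4, Mcm5, Mcm6, Hells and Dtl) were called in all 12 such fits. Scaling to library totals left no called gene, with Mcm3 at -1.42 (edgeR adjusted p = 0.0576), and neither did the contrast free of a Cre difference, Ikkβca+Stat3KO against Ikkβca, with Mcm3 at -1.46 ± 0.27 (edgeR adjusted p = 0.218).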

How the data were processed

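RNA was sequenced from 12 libraries of mouse oesophageal epithelium. The tools named in the submitters' processing notes are cutadapt 1.13 (adapter trimming), STAR (alignment), HTSeq 0.6.1p1 (counting) and DESeq2, with the build mm10. The deposited files hold the raw, unscaled counts of 23337 gene symbols. Library strand is not given in the sources used here, so where genes overlap on opposite strands their counts may be misplaced.

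Counts were analysed with edgeR 4.0.16, limma 3.58.1 and R 4.3.3. The filterByExpr rule kept 14134 genes, TMM factors scaled the libraries (14.8 to 30.2 M counts), and a robust quasi-likelihood model with IKKβ and Stat3 status gave the log2 fold changes, each as Stat3 loss minus Stat3 intact with a prior count of 2. Standard errors were derived from the fold change and its F statistic. A 4-group model gave the within-background changes and the interaction. Exact two-sided permutation tests rearranged libraries within IKKβ background. Positions come from GENCODE M21, and promoters from RefSeq.

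Members, 35 gene lists and tests were chosen with earlier results of these data known. Of 799 list memberships 788 were found, 14 under an older symbol, and 709 were tested. The genes named were the 15 highest or 15 lowest called fold changes with an average log2 CPM of at least 1, up to 4 genes per list with the smallest p, or set genes such as Stat3 and Socs3. Other called genes and other list members were named after their values were seen.

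On simulated data of 13965 genes for the same comparison, 66.7% of 66 genes changed 2-fold, 90.9% of 66 changed 4-fold and 97% of 66 changed 8-fold were called, with 5 of 13767 unchanged genes called. No library repeated another. Over genes with at least 20 counts, chi-square divided by its degrees of freedom was at least 26.1 in every pair of libraries. Alternatives were other scalings and filters, DESeq2 1.42.0, each IKKβ background in the 4-group model or alone, and leaving out libraries. Other models had a replicate block, no IKKβ term, or an added keratin share, stromal marker or sex term. Cre was not a term in any model.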

Additional observations from a re-analysis of the deposited data

Results flagged for a closer look

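Outlying libraries were sought in called genes, set genes such as Stat3, and the cell cycle, STAT3 target and cell type marker lists. Other named genes and lists were not checked. Stat3 loss and intact libraries were taken separately, which gave 156 sets of 6 libraries. Of these sets, 6 had a highest library far from the rest, with a gap to the next library of more than 0.625 of the whole range. For single sets of normally spread values, chance alone gives about 1 in 20. These sets mix both IKKβ backgrounds and share libraries, so the 6 cannot be weighed against that rate. Stat3KO replicate 3 stood apart for Hells, at 15.1 CPM where the next loss library had 10.8 CPM, and for Fen1, at 24.4 CPM against 19.6 CPM for the next. In both genes it was still below every intact library. Control replicate 2 stood apart for Fignl1, at 24.7 CPM with the next intact library at 14.9 CPM, and for Slbp, at 40.2 CPM with the next at 33.0 CPM. The mean log2 CPM of granulocyte and mast cell markers was 1.04 in Stat3KO replicate 1 and at most -0.02 in the other loss libraries. Nerve and glia markers had a mean log2 CPM of 3.29 in Control replicate 3 and at most 1.90 in the other intact libraries.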

How the results depend on the processing

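The count of 42 called genes (33 lower, 9 higher, 16 of them licensing or DNA synthesis genes that fell) was within 1.5 times under DESeq2 size factors (43), no count filter (41), 1 CPM in 3 libraries (40), no robust estimation (42), a replicate block (40), an average over 4 group means (37) and a sex term (37, with 27 lower, 10 higher and 34 shared with those reported). It was 0, with 0 lower, 0 higher and 0 licensing or synthesis genes, under library totals, each IKKβ background in the joint model or alone, and the stromal marker term. The active IKKβ background is the contrast free of a Cre difference. The stromal and sex terms were added after seeing the data. DESeq2 called 392 (230 lower, 162 higher, 36 licensing or synthesis genes), a term for the Krt4 and Krt13 share gave 288 (153, 135 and 35), no IKKβ term gave 13 (9, 4 and 5), and leaving out both libraries with gastric transcripts gave 31 (14, 17 and 10). Leaving out each library in turn gave 10 to 54 called, 9 to 45 lower, 1 to 12 higher and 7 to 22 licensing or synthesis genes. The cause of these differences was not tested. DESeq2 called 6 genes for the interaction, where edgeR called 0. Replicate numbers carried sex, 1 being female in every group, but were not taken to pair the libraries. Of same-numbered pairs 8 of 18 correlated above 0.1, and of other pairs 13 of 36. The block gave 27 lower and 13 higher, and 31 of its calls were shared with those reported.

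No called gene changed sign in 1216 comparisons with an alternative, while 93 of 3874 values of named genes that passed in neither fit did. The called genes were chosen by their change in these same libraries, so their kept sign is a description. List medians that turned sign by more than the spread between replicates were those of p53 targets (-0.0626 and -0.0717), IL-6 family genes (0.0252 and 0.0276), antimicrobial genes (0.00588 in that background fitted alone), respiratory genes (-0.0600 and -0.0664), granulocyte markers (0.13 and 0.13) and gastric markers (0.56 and 1.03) with IKKβ off, in the joint model and alone. Skeletal muscle reversed with IKKβ active (-2.22 in the joint model and -2.22 alone), IL-6 family genes under library totals (0.0272), B cell markers without a filter (0.0529), and macrophage (0.31), smooth muscle (0.00717), fibroblast (0.68) and endothelial markers (0.10) with the stromal marker term, which is built from 3 of those 4 lists. Across the 29 alternatives the licensing median stayed between -0.94 and -0.48, the DNA synthesis median between -0.70 and -0.41 and the G2 and mitosis median between 0.28 and 0.84. In 33 other cases, over 11 lists, a median turned sign within that spread, such as, with IKKβ off in the joint model, interferon-stimulated genes (0.22), macrophage markers (0.07) and immediate early genes (-0.08). At 14.8 to 30.2 M counts, genes under 1 CPM such as Apol6 rest on few reads.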
